A study of Mus musculus with 12 samples.

Results

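Interferon regulatory factors (IRFs) are transcription factors that share a DNA-binding domain with a conserved row of tryptophans. The 8 genes examined here, Irf1, Irf2, Irf3, Irf4, Irf5, Irf7, Irf8 and Irf9, were taken by gene symbol or older alias from a table of 21837 rows covering 18430 genes, and each had 1 row. They were compared between bone marrow monocytes (BMDM, CD11b+ CD45high CD115+ Ly6G-) and brainstem microglia (BSM, CD11b+ CD45low CD115low Ly6G-), the marrow precursors of infiltrating macrophages and the macrophages resident in brain, for which the study sought separating transcripts. Cells came from C57BL/6 mice aged 6 weeks for which the labels give no treatment or genetic change, and each of the 6 Affymetrix Mouse Exon 1.0 ST arrays (3 per cell type) held amplified RNA from its own pool of sorted cells. Replicate 1 of each cell type is labelled female and replicates 2 and 3 male.

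The family works at both ends of the interferon response. Irf3 and Irf7 wait in the cytoplasm until a sensor of viral nucleic acid activates a kinase that phosphorylates them, and they then switch on the type I interferon genes. Secreted interferon signals through its receptor and JAK kinases to a complex that holds Stat2 and Irf9, which binds the interferon-stimulated response element and induces antiviral genes, Irf7 among them. Irf1 and Irf2 bind the same element, Irf1 mostly as an activator and Irf2 mostly as a repressor. Irf4 and Irf8 bind DNA together with partners such as Spi1 (PU.1) and Batf and serve blood cell development, Irf8 being needed for monocytes and microglia. Irf5 acts downstream of Toll-like receptors.

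The promoters of the members whose values differed most, Irf7, Irf4 and Irf9, are shown first, each as the last 100 bases before an annotated RefSeq start (GRCm38.p6), with any TATA box in capitals. Those of Irf1, Irf2 and Irf8 follow because they held a match to an interferon-related element, which stands there in capitals.
Irf7, chr7:141266425-141266524, minus strand: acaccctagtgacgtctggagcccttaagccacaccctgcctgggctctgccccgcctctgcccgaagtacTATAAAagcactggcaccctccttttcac
Irf4, chr13:30749133-30749232, plus strand: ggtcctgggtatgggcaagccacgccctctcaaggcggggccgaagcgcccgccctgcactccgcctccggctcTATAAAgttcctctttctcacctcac
Irf9, chr14:55603885-55603984, plus strand: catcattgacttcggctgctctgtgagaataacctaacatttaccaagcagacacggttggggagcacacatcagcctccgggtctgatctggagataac
Irf1, chr11:53769904-53769952, plus strand: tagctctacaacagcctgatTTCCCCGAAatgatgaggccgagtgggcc
Irf2, chr8:46739495-46739549, plus strand: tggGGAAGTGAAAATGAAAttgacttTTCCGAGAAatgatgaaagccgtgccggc
Irf8, chr8:120736167-120736233, plus strand: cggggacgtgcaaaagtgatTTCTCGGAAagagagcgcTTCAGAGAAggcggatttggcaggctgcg

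All 8 members had a promoter in the RefSeq table, in 11 windows of 300 bases in all, and 4 motifs were searched on both strands. The interferon-stimulated response element (GAAA, any 2 bases, GAAA) was found in Irf2 alone, as GAAAATGAAA, and in 3.44% of all 32851 promoters. The composite element that IRFs and ETS factors such as Spi1 share (GGAA, any 2 bases, GAAA, in 2.72% of promoters) was likewise found in Irf2 alone, as GGAAGTGAAA, overlapping the first match. The gamma-activated site (TTCNNNGAA, in 8.30% of promoters), was found in Irf1 as TTCCCCGAA, in Irf2 as TTCCGAGAA and in Irf8 as TTCTCGGAA and TTCAGAGAA. A TATA box (TATAAA, in 13.6% of promoters) was found in Irf4, Irf7 and Irf8. The windows of Irf3, Irf5 and Irf9 held none of these letters. A match describes the letters only.

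Irf7, Irf4 and Irf9 were lower in BSM than in BMDM and the other 5 members were not called, so that the test called 3 of 8 members lower and 0 higher. Each member was tested with limma on log2 intensity, as BSM minus BMDM, and called at an adjusted p of 0.05 over all rows. Of all rows, 21.6% were called lower and 28.0% higher. The median difference of the members was -0.27 (log2), against 0.18 for all rows. Centring each array on its median called 5 members lower (Irf2 and Irf5 as well), and quantile normalizing the arrays again called 2 higher (Irf3 and Irf8). Fewer cells of a type and less RNA per cell cannot be told apart in these pooled samples, and the p-values measure only the spread between pools. Probes also carry background: the 5 neuron markers measured read 3.97 to 6.24 (log2) in BMDM and 4.28 to 6.0 in BSM, highest for Tubb3. A fold against a value at or below about this level, such as that of Tlr8 in BSM or of Tlr3 in BMDM, is therefore a lower bound. Irf7 in BSM (5.79 to 6.07) reached into the neuron marker range of BSM only through Tubb3, and on replicate 1 (6.07) it lay above that range. Apart from Tubb3, the highest neuron marker value was 5.14 (Gad1 in BMDM). The fold of Irf7 may therefore be a lower bound, which was not tested.

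**Figure D1:**
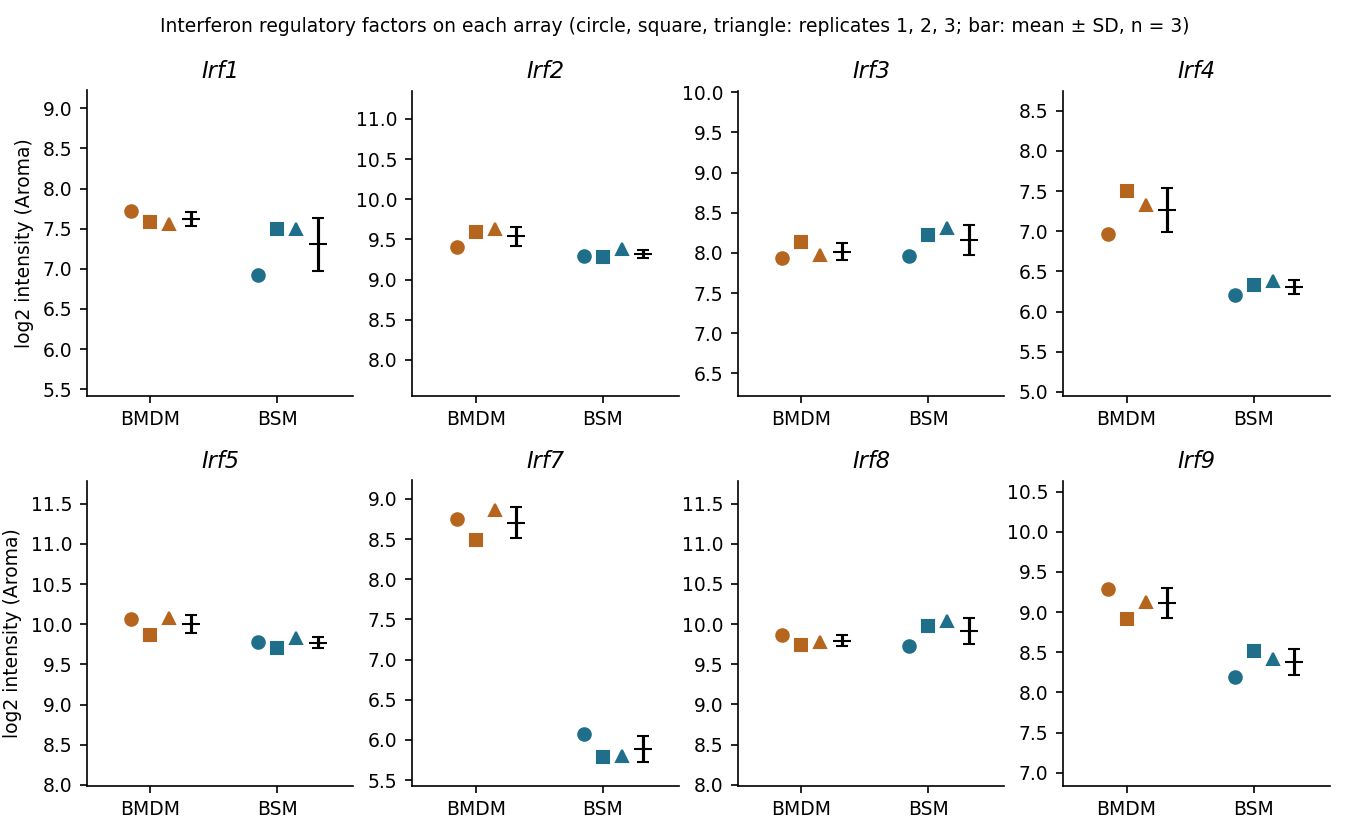
Log2 intensity (Aroma) of each member on the 3 BMDM and the 3 BSM arrays, with symbols for replicates 1 to 3 and the mean ± SD beside them. Every panel spans the same height on the log2 scale, and Irf7 shows the widest gap, from 8.70 in BMDM to 5.89 in BSM.

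Irf7, the inducible amplifier of type I interferon production, read 8.75, 8.49 and 8.87 in BMDM and 6.07, 5.79 and 5.80 in BSM (log2 intensity, replicates 1, 2 and 3). All BSM arrays lay far below all BMDM arrays, and the spread within a cell type was small (SD 0.19 in BMDM and 0.16 in BSM, n = 3). The log2 difference was -2.82 (SE 0.14, limma adjusted p = 7.8e-07), a measured 7.04-fold lower level in BSM (95% interval 5.67 to 8.73). Only 1.89% of rows had a lower difference. Irf7 was also the only member called at 2-fold or more, where 9.24% of all rows were lower and 6.81% higher.

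Irf3, its close relative, which most cells make without stimulation, read 7.94, 8.13 and 7.98 in BMDM and 7.96, 8.23 and 8.30 in BSM. The cell types overlapped, and the difference of 0.15 (SE 0.12, 95% interval -0.14 to 0.43, limma adjusted p = 0.34) had the opposite sign after median centring (-0.044) and in the Expression Console values (-0.12). The log2 ratio of Irf3 to Irf7 on the same array was therefore compared between the cell types. It was -0.81, -0.36 and -0.89 on the BMDM arrays and 1.88, 2.44 and 2.51 on the BSM arrays, a change of 2.96 (95% interval 2.25 to 3.68) or 7.79-fold. The exact two-sided permutation test gave p = 0.1 and, over the 3 pairs, an adjusted p = 0.15. With 3 arrays on each side p cannot be smaller than 0.1.

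Irf9, the DNA-binding subunit of the complex that carries the type I interferon signal to the nucleus, read 9.28, 8.92 and 9.13 in BMDM and 8.19, 8.52 and 8.42 in BSM. The arrays did not overlap, and the log2 difference was -0.73 (SE 0.13, limma adjusted p = 0.0023), or 1.66-fold lower in BSM (95% interval 1.34 to 2.06). Its partner Stat2 read 8.69, 8.53 and 8.74 in BMDM and 7.27, 7.41 and 7.32 in BSM, a difference of -1.32 (SE 0.10, limma adjusted p = 1.6e-05).

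Irf4, a factor of B cell, plasma cell and dendritic cell development, read 6.97, 7.50 and 7.32 in BMDM and 6.21, 6.33 and 6.38 in BSM. The BMDM arrays spread more widely (SD 0.27) than the BSM arrays (SD 0.09), without overlap. The log2 difference of -0.96 (SE 0.15, limma adjusted p = 0.00082) is a 1.94-fold lower level in BSM (95% interval 1.54 to 2.45).

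Irf8, its relative of the myeloid lineage, read 9.87, 9.73 and 9.78 in BMDM and 9.73, 9.97 and 10.04 in BSM. These values overlapped. The difference of 0.12 (SE 0.11, 95% interval -0.14 to 0.38, limma adjusted p = 0.40) had the opposite sign after median centring (-0.069) and in the Expression Console values (-0.11). Irf4 thus changed by -1.08 relative to Irf8 on the same array (95% interval -1.63 to -0.52, or 2.11-fold), with the smallest exact permutation p the design allows (p = 0.1, adjusted p = 0.15).

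Irf5, which drives inflammatory cytokine genes in macrophages, read 10.06, 9.87 and 10.08 in BMDM and 9.78, 9.70 and 9.83 in BSM. Without overlap, the difference of -0.23 (SE 0.10, 95% interval -0.47 to 0.01) missed the threshold (limma adjusted p = 0.098) and turned positive when the arrays were quantile normalized again (0.11), while the Expression Console table called it lower (-0.41, limma adjusted p = 0.030).

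The repressor Irf2 gave a like picture, at 9.40, 9.59 and 9.62 in BMDM and 9.29, 9.28 and 9.38 in BSM. Its difference of -0.22 (SE 0.10, 95% interval -0.46 to 0.02) also missed the threshold (limma adjusted p = 0.10), turned positive with repeated quantile normalization (0.11) and was called lower in the Expression Console table (-0.43, limma adjusted p = 0.045).

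Irf1, the activator, read 7.72, 7.58 and 7.56 in BMDM and 6.92, 7.50 and 7.49 in BSM, so that BSM replicate 1 lay well below the other BSM arrays. The difference was -0.31 (SE 0.16, 95% interval -0.69 to 0.06, limma adjusted p = 0.14), and without BSM replicate 1 it was -0.12. The log2 ratio of Irf1 to Irf2 changed by -0.091 (95% interval -0.69 to 0.51, exact permutation p = 0.8), and the sign turned without BMDM replicate 1 or without BSM replicate 1.

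By array values alone, 6 of the 8 members lay lower on every BSM array than on any BMDM array, and none lay higher. Of all rows, 24.4% were separated in this way with BSM lower and 36.4% with BSM higher. The Expression Console table, which summarises the same 6 arrays by another program, called 5 members lower (Irf2, Irf4, Irf5, Irf7 and Irf9) and 0 higher, where 20.5% of its 23332 rows were called lower and 8.38% higher. In it the log2 difference was -3.16 for Irf7, -1.32 for Irf4 and -0.97 for Irf9.

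**Figure D2:**
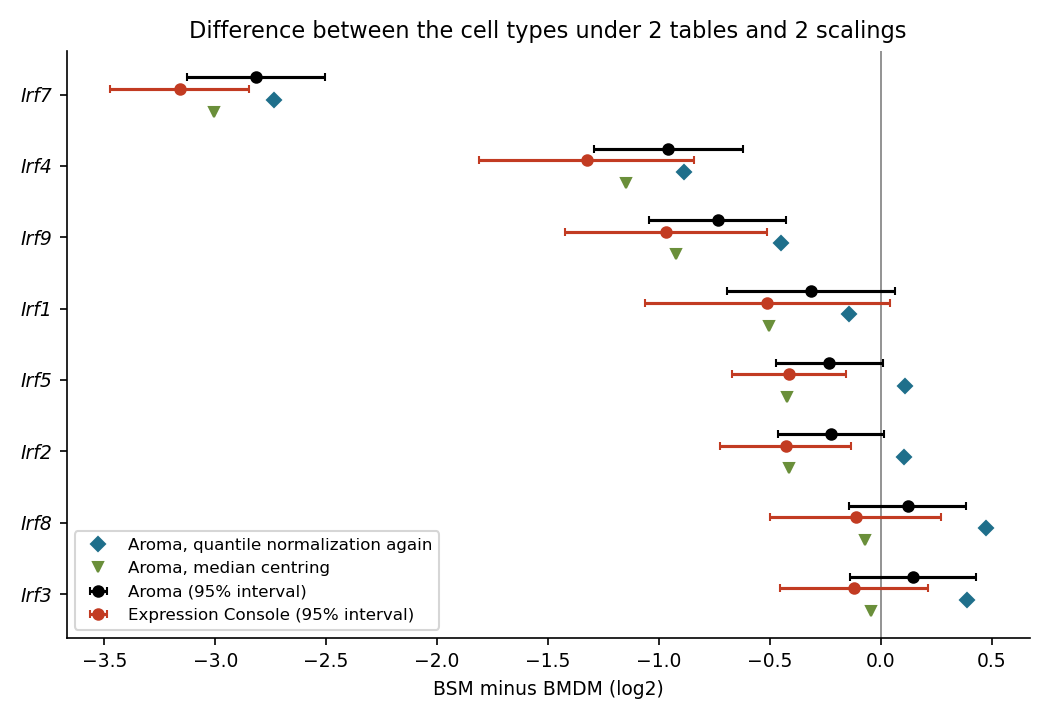
Log2 difference (BSM minus BMDM) of each member, with its 95% interval in the Aroma and the Expression Console tables, and as points after repeated quantile normalization and after median centring of the Aroma values. Irf7, Irf4 and Irf9 lie below 0 in all 4, as does Irf1 without being called, while Irf2, Irf3, Irf5 and Irf8 cross 0 from setting to setting.

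The genes whose centred profile over the 6 arrays lay nearest to that of Irf7 were Pde7b, a cAMP phosphodiesterase, and Fas, the death receptor. Both were lower on every BSM array, which follows from how they were picked, and 24.4% of all rows were separated in this way. Pde7b read 7.55, 7.13 and 7.70 in BMDM and 4.85, 4.48 and 4.54 in BSM, with a root mean square distance of 0.0679 (log2) from Irf7. Fas read 7.75, 7.43 and 7.75 in BMDM and 4.99, 4.91 and 4.92 in BSM, at a distance of 0.0941.

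Upstream of the IRFs, the receptors and adaptors that sense viral nucleic acid and endotoxin changed in both directions. Of 21 genes measured, 9 were called higher in BSM and 5 lower (8 with median centring), beside 28.0% and 21.6% of all rows. Their median was 0.050 (log2). Tlr3, the endosomal receptor for double-stranded RNA, which signals to Irf3, read 4.70, 4.79 and 4.58 in BMDM and 9.43, 9.30 and 9.38 in BSM, a 25.7-fold higher level in BSM (log2 difference 4.68, SE 0.10). Of the single-stranded RNA receptors that signal to Irf7 and Irf5, Tlr7 stood at 7.27, 7.36 and 7.85 in BMDM and 10.17, 9.59 and 9.81 in BSM (5.15-fold higher).

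Tlr8, its neighbour in the receptor family, went the other way, at 8.30, 8.58 and 8.75 in BMDM and 4.04, 3.93 and 3.79 in BSM, 24.7-fold lower in BSM. Of the kinases that phosphorylate Irf3 and Irf7, Ikbke was 5.64-fold lower in BSM (7.24 to 7.72 against 4.85 to 5.004). Tbk1 was higher by 0.50 (SE 0.10, limma adjusted p = 0.0037), a call lost after median centring (0.31) and in the Expression Console values (0.22). Sting1, the adaptor of cytosolic DNA sensing, was higher in BSM (log2 difference 1.80, SE 0.10), and Myd88, the adaptor of most Toll-like receptors, lower (-1.03, SE 0.13).

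Interferon genes include targets of Irf3 and Irf7, but those measured also held interferon gamma, which is of another type. Of 8 measured, 2 were called higher in BSM (Ifnb1 and Ifna2) and 1 lower (Ifnk), beside 28.0% and 21.6% of all rows. The Expression Console table called 0 of 7 higher and 1 lower, beside 8.38% and 20.5% of its rows. Ifnb1 read between 2.89 and 3.74 in BMDM and between 3.68 and 4.24 in BSM, which overlap. These values lie below the lowest neuron marker value of each cell type (3.97 in BMDM and 4.28 in BSM). Neither its call nor that of Ifna2 (0.44, SE 0.14, limma adjusted p = 0.033) held with median centring (limma adjusted p = 0.14 and 0.21) or repeated quantile normalization (limma adjusted p = 0.17 and 0.30), and the interferon alpha genes are near-identical copies whose probes may not tell them apart. Ifnk read 6.52, 6.22 and 6.48 in BMDM and 4.01, 3.99 and 4.51 in BSM.

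Between ligand and nucleus, 4 of 11 receptor, JAK and STAT genes were called lower in BSM and 2 higher (5 higher with repeated quantile normalization). The median was -0.026, and 21.6% of all rows were called lower and 28.0% higher. The lower ones were Stat2, Tyk2 (log2 difference -0.89, SE 0.11), Jak2 (-0.78, SE 0.10) and Stat3 (-0.44, SE 0.10), of which Stat3 was not called after repeated quantile normalization (-0.17). Tyk2 and Jak1 are the JAK kinases of the type I interferon receptor. Jak1 was not called (-0.011, SE 0.11), though repeated quantile normalization called it higher (0.33). The type I receptor subunits Ifnar1 (-0.18, SE 0.11) and Ifnar2 (-0.026, SE 0.10) were not called, and both turned positive with repeated quantile normalization (0.12 and 0.38, Ifnar2 then called higher), while median centring called Ifnar1 lower (-0.37). Ifngr1, the ligand-binding chain of the interferon gamma receptor, stood 0.87 higher in BSM (SE 0.092), and Il10rb, a chain of the lambda interferon and interleukin 10 receptors, 1.13 higher (SE 0.11).

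Of 12 regulators of IRF and interferon signalling, 3 were lower in BSM (1 with repeated quantile normalization, 5 with median centring) and 4 higher (median 0.037). These shares lie near those of all rows (21.6% lower and 28.0% higher). Socs3, an inhibitor of JAK signalling, read 5.27, 5.04 and 5.36 in BMDM and 8.07, 7.29 and 8.23 in BSM, 6.23-fold higher, though with a smaller difference in the Expression Console table (log2 1.68 against 2.64). Usp18, an interferon-induced brake on the type I receptor, was 3.06-fold lower. Irf2bpl was 3.19-fold higher and the ubiquitin ligase Peli1 1.82-fold higher in BSM, and the log2 difference of Irf2bpl fell from 1.67 to 0.58 in the Expression Console table.

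Of 12 DNA-binding partners and coactivators, 6 were lower in BSM and 2 higher (median -0.35), beside 21.6% and 28.0% of all rows. With median centring 1 was higher. The Expression Console table measured 6 of the 12, Batf3, Spib and Ikzf3 not among them. It called 4 lower and 0 higher, beside 20.5% and 8.38% of its rows. Spi1, which recruits Irf4 and Irf8 to composite elements, was lower in BSM (difference of -0.47 on the log2 scale, SE 0.11, limma adjusted p = 0.0088), though not called after repeated quantile normalization (-0.084), and its relative Spib was lower by a wider margin (-1.52, SE 0.12). Batf, which pairs with Irf4 and Irf8 on AP-1 composite elements, read 7.90 to 8.04 in BMDM and 5.93 to 6.54 in BSM (log2 difference -1.68, or -2.31 in the Expression Console table), while Batf3 went the other way, at 6.33, 6.42 and 6.28 against 7.46, 7.92 and 7.97. Ikzf3, a zinc finger factor of lymphoid cells, was 2.04-fold lower in BSM. Spib read 5.92 to 6.23 in BMDM and 4.50 to 4.70 in BSM, and Ikzf3 5.30 to 5.84 and 4.55 to 4.73. Both lay within the neuron marker range of each cell type, in BMDM only through Tubb3.

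Downstream, the genes that type I interferon induces were lower in BSM almost throughout. Of 23 measured, 22 were called lower and 0 higher, 13 of them at 2-fold or more, with a median of -1.32 (log2). Of all rows, 21.6% were called lower, 28.0% higher and 9.24% lower at 2-fold or more. The remaining gene was Ddx58 (-0.11, SE 0.16, limma adjusted p = 0.57). The oligoadenylate synthetase family, which makes the activator of the antiviral RNase L, held the 4 largest differences. Oas1a read 9.70, 8.87 and 9.51 in BMDM and 6.56, 6.83 and 6.55 in BSM, 6.56-fold lower in BSM. Oas2 was 6.88-fold lower, Oasl2 6.55-fold and Oas3 6.51-fold, beside 7.04-fold for Irf7. Of the 17 that the Expression Console table also holds, Oas1a and Oas3 not among them, it called 15 lower and neither Ddx58 nor Rtp4. Of all its rows, 20.5% were called lower.

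**Figure D3:**
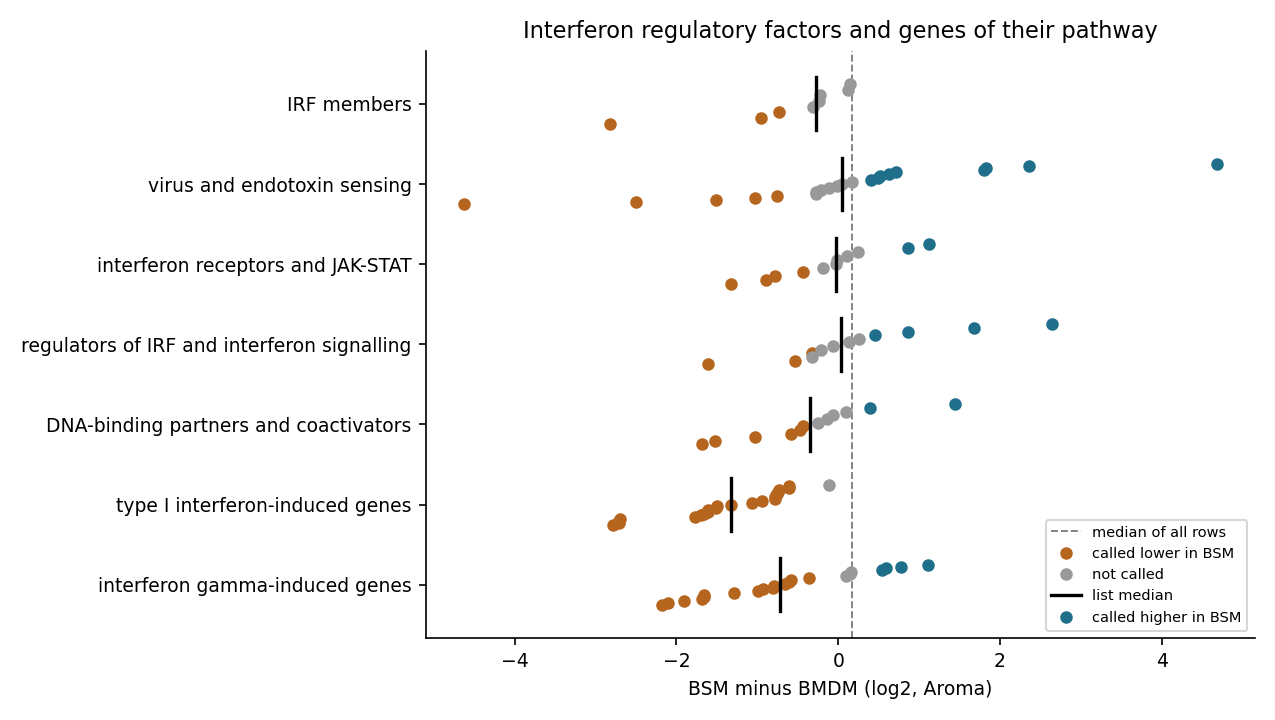
Log2 difference (BSM minus BMDM) of the IRF members and of the genes of 6 pathway lists, each point a gene coloured by its limma call, with the list median as a bar and the median of all rows (0.18) as a dashed line. The type I interferon-induced genes have 22 of 23 called lower, beside 21.6% of all rows, whereas the sensing genes spread to both sides. Under other scalings Irf2, Irf3, Irf5 and Irf8 change side.

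Of 22 interferon gamma-induced genes measured, 15 were lower in BSM and 4 higher (median -0.72), beside 21.6% and 28.0% of all rows. Nlrc5, the activator of MHC class I genes, read 7.82, 7.41 and 7.59 in BMDM and 5.66, 5.96 and 6.13 in BSM. The MHC class II chain H2-Aa, at 9.03, 9.90 and 9.02 against 7.23, 6.71 and 7.46, was 4.54-fold lower in BSM (log2 difference -2.18, or -2.79 in the Expression Console table), the invariant chain Cd74 4.28-fold and H2-Eb1 3.74-fold. The 4 higher genes were the immunity-related GTPase Irgm2 (1.11, SE 0.15), Igtp (0.59, SE 0.15), the guanylate-binding protein Gbp4 (0.54, SE 0.13) and the checkpoint ligand Cd274 (0.78, SE 0.19), named after their values were seen. With median centring 2 were higher, Igtp and Gbp4 no longer among them. Of the 16 that the Expression Console table also holds, it called 12 lower and 0 higher, beside 20.5% and 8.38% of its rows. Cd274 was the only one of the 4 higher genes measured there (0.48, limma adjusted p = 0.41).

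Genes that others have tied to Irf8 and Irf5 in activated microglia were higher in BSM in 7 of 8 cases and lower in none, with a median of 0.83. Of all rows, 28.0% were called higher. With median centring Tlr2 (0.21) and Il1b (0.30) were no longer called. The Expression Console table called 4 of the 8 higher, beside 8.38% of its rows. P2ry12, a purinergic receptor of microglial process motility, read 5.02, 5.27 and 5.84 in BMDM and 11.98, 11.70 and 11.73 in BSM. Cx3cr1, the fractalkine receptor, was 4.75-fold higher, Tlr4, the endotoxin receptor, 3.56-fold and the protease Ctss 2.14-fold. P2ry12 also belongs to the microglia markers, and the paper uses Cx3cr1 as the reference for its microglia genes. The list was compared only between the cell types, and no link of its count to Irf8 or to cell type was tested. Irf8 itself was not called in either direction.

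The BMDM arrays differed among themselves in the interferon-induced genes. BMDM replicate 2 was the lowest of the 3 BMDM arrays in all 23 type I interferon-induced genes, with a median difference of -0.38 (log2) from the mean of replicates 1 and 3, whereas it was lowest in 36.2% of all rows, with a median of -0.0068. Oas1a, for example, read 8.87 on that array against 9.70 and 9.51. The members were lowest on it in 4 of 8 cases, Irf5, Irf7, Irf8 and Irf9, and the interferon gamma-induced genes in 11 of 22. In the Expression Console table of the same arrays the type I genes were lowest there in 17 of 17.

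The MHC class II genes went the other way and were highest on BMDM replicate 2, at 9.90 for H2-Aa and 10.57 for Cd74. The pattern was noticed after the values were seen, and all these genes share the same 3 arrays, so it describes 1 pool. Without that array the same 22 type I interferon-induced genes were called lower, with log2 differences of -2.92 for Irf7 and -0.83 for Irf9.

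**Figure D4:**
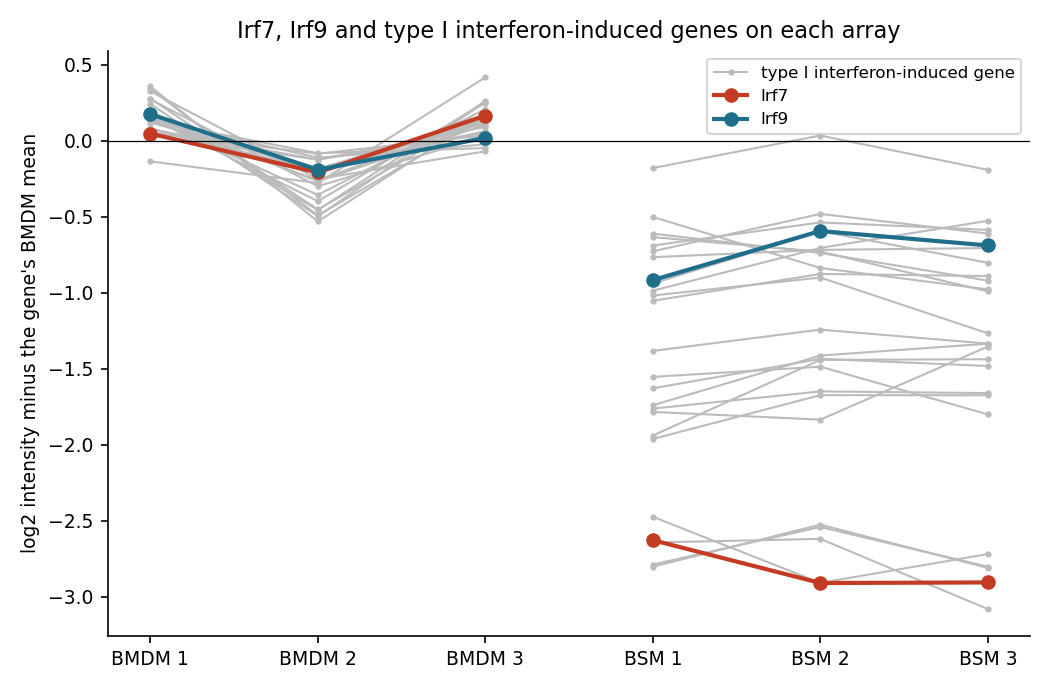
Log2 intensity of the 23 type I interferon-induced genes (grey), Irf7 (red) and Irf9 (blue) on each array, minus the gene's own BMDM mean; lines join a gene's values and the replicates have no order. All grey points on BMDM replicate 2 lie below the other BMDM arrays of the same gene, and the BSM arrays lie lower still for all genes but Ddx58.

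The labelled cell types carried their markers. All 8 microglia markers measured were higher in BSM (summed intensity 275.8 to 340.8 in BMDM and 30337 to 32196 in BSM), and all 6 monocyte markers were lower (22210 to 23562 against 140.7 to 173.3). Other cells that make IRFs or interferon were looked for with marker lists. To set beside each count, 21.6% of all rows were called lower in BSM and 28.0% higher. Of 9 plasmacytoid dendritic cell markers 3 were lower and 3 higher in BSM, with sums of 562.4 to 615.6 in BMDM and 948.8 to 997.3 in BSM. Of 7 conventional dendritic cell markers 4 were lower and 2 higher (598.4 to 864.8 against 403.5 to 480.2), and of 6 B cell markers 4 were lower and 1 higher (557.7 to 775.3 against 584.4 to 661.4).

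The B cell receptor subunits went opposite ways, Cd79a from 7.18 in BMDM to 4.72 in BSM and Cd79b from 8.46 to 8.95 (means). Of the dendritic cell markers, Cd209a, Clec9a, Flt3 and Dpp4 were lower and Batf3 and Xcr1 higher. Of 8 T and NK cell markers Nkg7 (8.85 against 5.10) and Cd3d (5.03 against 4.07) were lower, beside 21.6% of all rows, and the other 6 were not called. All 8 neutrophil markers were lower in BSM (summed intensity 12464 to 13751 in BMDM against 197.2 to 296.2 in BSM), in cells gated as Ly6G-. The BMDM sum rests mostly on S100a8, S100a9 and Mpo, with BMDM means of 11.96, 11.76 and 11.64 (log2). The highest BMDM mean of the other markers was 9.97 (Mmp8). Among these others were Camp (10.1-fold lower), Retnlg (9.15-fold), Ltf (4.50-fold) and Mmp8 (81.1-fold). Which cells in the BMDM pools gave these values was not tested. The part of neutrophils in the Irf4, Irf7 and class II differences was not tested either.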

How the data were processed

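The 12 GEO samples are 6 arrays (3 BMDM, 3 BSM) summarised by 2 programs, so n is 3 per cell type. The authors deposited Aroma values as linear intensity after RMA background correction, quantile normalization and a probe-level model, and Expression Console values as log2 after RMA. The submitters' processing notes also name Partek. No detection call is given, so dim values include background, and precision is limited by the number of arrays. Median Aroma intensity was 42.8 to 45.2 in BMDM and 48.8 to 52.1 in BSM.

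Aroma intensities were converted to log2. The two-sided test was limma's (version 3.58.1 under R 4.3.3; lmFit, then eBayes), without covariate or filter, with Benjamini-Hochberg adjustment over all 21837 rows. Expression Console rows were tested likewise. The steps were tested on simulated data. Symbols came from the platform annotation, updated through RefSeq (GRCm38.p6); a gene with several rows was represented by that with the highest mean. Pairs of members were compared by exact permutation. The files name no genome build, and the promoter coordinates given are those of RefSeq on GRCm38.p6.

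The members and gene lists were chosen with earlier results of these data known. Named genes are the 8 members, up to 4 called genes per list with the largest differences and no overlap, and the 2 nearest profiles of any member called at 2-fold or more. Ddx58, Ifnb1, Sting1, Myd88, Tbk1, Jak2, Stat3, Ifnar1, Ifnar2, Spi1, Irgm2, Igtp, Gbp4, Cd274 and Rtp4 were named with their values in view. So were Jak1, Tlr2, Il1b and the marker genes. Usp18, Ddx58, Ifih1, Dhx58, Stat2 and Tlr4 stand in more than 1 pathway list. The alternatives tried were the other table, 2 scalings, a replicate block, sex as covariate, leaving out each array, a filter on dim rows, other variance settings, array weights, the mean of a gene's rows and the methods' t-test.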

Additional observations from a re-analysis of the deposited data

How the results depend on the processing

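Irf4, Irf7 and Irf9 kept their direction and call in all 16 alternatives (log2 differences -1.32 to -0.84, -3.16 to -2.73 and -0.97 to -0.45), and Irf1 was called in none. The Expression Console table called 5 members lower, 0 partners and 0 interferon gamma-induced genes higher, and reversed Irf3 (-0.12) and Irf8 (-0.11). Batf3, Irgm2, Igtp and Gbp4 have no row there, and neither have Oas1a, Oas3, Usp18, Nlrc5, H2-Eb1, Spib, Ikzf3 and Ifna2. Quantile normalization again called 2 members higher, Irf3 (0.39, limma adjusted p = 0.015) and Irf8 (0.47, limma adjusted p = 0.0077), 5 receptor and JAK-STAT genes higher and 1 regulator lower, and reversed Irf2 (0.11) and Irf5 (0.11). Median centring called 5 members, 8 sensing genes and 5 regulators lower, 1 partner and 2 interferon gamma-induced genes higher, and reversed Irf3 (-0.044) and Irf8 (-0.069). The median of all rows was 0.18, against -0.047 in the Expression Console table, 0.036 after quantile normalization and -0.014 after centring. The methods' t-test called 2 interferon gamma-induced genes higher. The cause of these differences was not tested. Leaving out single arrays moved the change of Irf1 relative to Irf2 between -0.20 and 0.086, positive without BMDM replicate 1 (0.026) or BSM replicate 1 (0.086). Same-numbered arrays did not deviate together over all rows (correlations 0.065, 0.0021 and 0.011). This does not show that they are unlinked, as replicate 1 is the female pool in both cell types. With the replicate block 3 members were lower and 0 higher, and no count of calls given here moved by over 1.5 times.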
